A study of Mus musculus with 24 samples.

Results

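The antioxidant enzymes of the mouse kidney were followed after myocardial infarction (MI) through a set of 55 genes among the 56941 genes of the count table. Members were selected by gene name, and this choice was made with earlier results of these data known. They cover the glutathione S-transferase, glutathione peroxidase, peroxiredoxin and superoxide dismutase families, catalase, the thioredoxin system and the enzymes that make and recycle glutathione. Sulfiredoxin, *Nqo1*, and the transcription factor NRF2 (*Nfe2l2*) with its inhibitor *Keap1* were also included. Of the 55 members, 46 had enough counts to be tested, within a fit of 12780 genes.

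Kidney RNA came from wildtype male C57BL/6J mice, 8 to 11 weeks old at surgery. Infarction was induced by tying off the left anterior descending artery (LAD) permanently, and kidneys were taken 5d later (5d post-MI, 8 kidneys used) or 28d later (28d post-MI, 6 kidneys used). Sham-operated mice had the same surgery without ligation, and their 8 kidneys were all taken 5d after it. The same sham kidneys therefore served as controls for both times, so that 28 days of ligation cannot be told apart from the later time after surgery and the higher age, and the comparisons of both times with sham are not independent.

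Reactive oxygen species are by-products of mitochondrial respiration, and the proximal tubule, which is rich in mitochondria, is a main site of their production in the kidney. Superoxide dismutases turn superoxide into hydrogen peroxide, which catalase, glutathione peroxidases and peroxiredoxins then reduce, while glutathione S-transferases couple glutathione to reactive compounds. NRF2 is held in the cytoplasm and marked for breakdown by KEAP1; under oxidative or electrophilic stress it escapes, enters the nucleus with small MAF proteins, and switches on many of these genes through the antioxidant response element.

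The libraries were made by Massive Analysis of cDNA Ends (MACE), which reads the 3′ ends of mRNA and marks molecules with unique molecular identifiers. Levels are given as CPM, counts scaled to library size by the trimmed mean of M-values (TMM), and they are compared between kidneys only, gene by gene. The kidneys held between 2280618 and 3786275 counts, so that 3 counts, the most that a count of 0 allows, corresponded to 0.809 to 1.33 CPM (counting error only). The summed level of 16 proximal tubule markers was high in every kidney, from 46484 to 86643 CPM, as the tissue label says, although *Slc5a2* among them stayed at 3 counts or fewer in every kidney. Sham replicates 2 and 6 and replicate 5 of the 5d post-MI group also carried transcripts of the adrenal cortex. In these bulk samples, fewer cells of a type and less RNA per cell cannot be told apart.

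Members made up 2.66% to 3.53% of all counts of a kidney. Plasma glutathione peroxidase *Gpx3*, which the proximal tubule secretes into the blood, alone made up 1.36% to 2.25%. Of the 9 untested members, *Gpx2*, *Gpx5*, *Gstp3*, *Gstm3*, *Gstt4* and the pseudogene *Prdx2-rs3* had between 4 and 14 counts over all 22 kidneys, and *Prdx6b*, *Gstm6* and *Gsto2* had 81, 104 and 142.

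Of the 46 tested members, 1 passed the adjusted threshold in any of the 3 comparisons. At 5d post-MI, 0 of 46 members passed an adjusted p of 0.05 (edgeR quasi-likelihood test, Benjamini-Hochberg over all 12780 genes), where 0.0704% of all tested genes did. At an unadjusted p under 0.05 there were 6 members (13.0%, against 7.90% of all tested genes), with *Gclc*, *Gpx3*, *Gstm5* and *Gstt2* higher (8.70%, against 3.92%) and *Gstp1* and *Gstp2* lower than sham (4.35%, against 3.97%).

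At 28d post-MI, again 0 of 46 members passed the adjusted threshold, where 0.0235% of all genes did, and 9 had an unadjusted p under 0.05 (19.6%, against 8.68% of all genes). Only *Gstt2* among these 9 was higher than sham (2.17%, against 4.45%), and 8 were lower (17.4% of members, against 4.23% of all genes): *Gpx8*, *Gsta2*, *Gstm1*, *Gstm7*, *Gsto1*, *Gstp1*, *Gstp2* and *Prdx4*. In the counts at 5d and at 28d, *Gstp1* and *Gstp2* stand as 2 members, although their reads cannot be told apart by sequence, so that they are not separate results. DESeq2 and limma's voom also called 0 members at 5d and at 28d. Between the times, *Gsto1* was the 1 member that passed the adjusted threshold (0.415% of all genes did) and it fell from 5d to 28d post-MI, likewise with both other tools. The 7 members with an unadjusted p under 0.05 in this comparison (15.2%, against 9.05% of all genes) were all lower at 28d, where 4.01% of all genes were lower and 5.03% higher.

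The median log2 fold change of the 46 members was −0.031 at 5d and −0.013 at 28d post-MI against sham, beside 0.00018 and −0.0012 for all 12780 genes. Below 0 lay 31 members at 5d (67.4%, against 49.9% of all genes), 29 at 28d (63.0%, against 50.4%) and 23 between the times (50.0%, against 51.4%). Their median change in size, whatever its direction, was 0.066 and 0.058, and that of all genes 0.084 and 0.093. No member had groups of kidneys without overlap in any comparison, and 0.0548% of all tested genes did at 5d, 0.258% at 28d and 0.344% between the times.

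**Figure D1:**
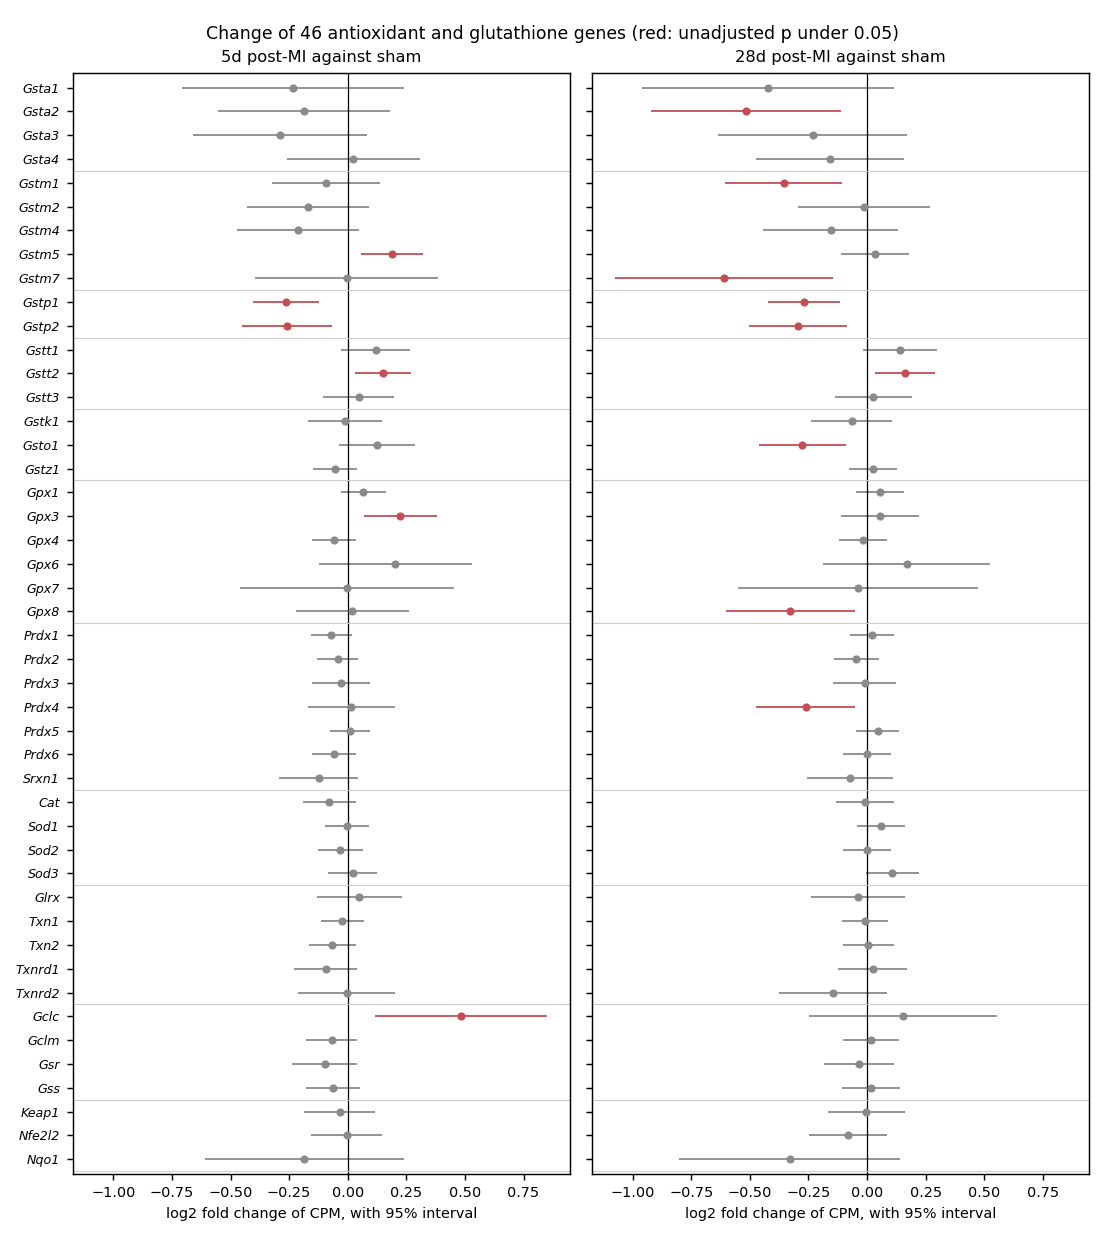
Log2 fold change of CPM with its 95% interval for the 46 tested members, at 5d post-MI (left) and 28d post-MI (right) against the same 8 sham kidneys, ordered by gene class. The 6 members on the left and 9 on the right with an unadjusted p under 0.05 are red, and the alpha, mu and pi class transferases lie mostly left of 0 at 28d.

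**Figure D2:**
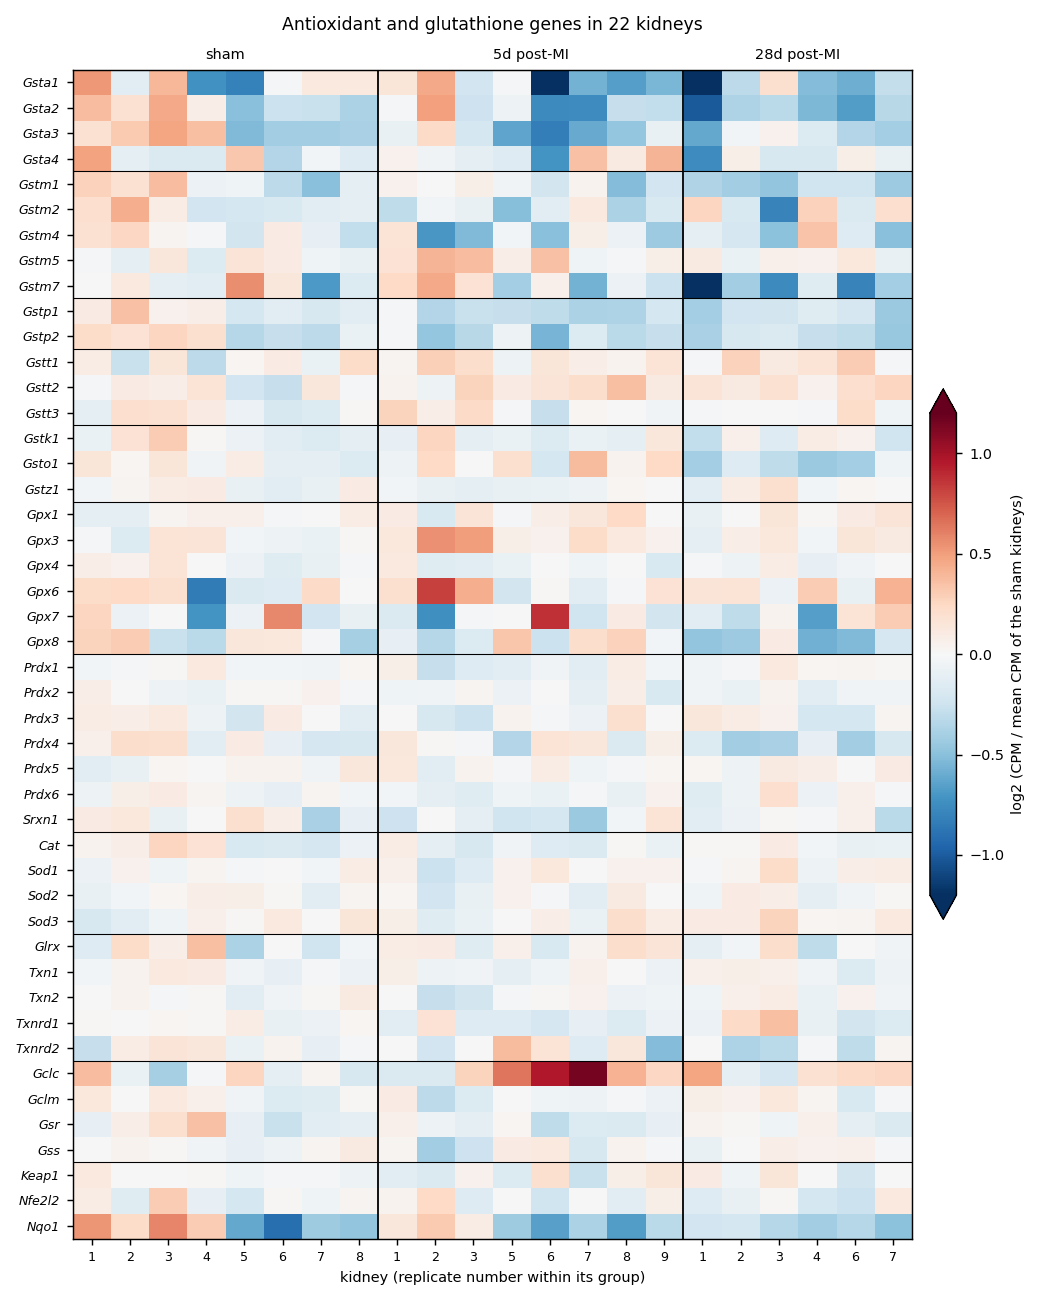
Log2 of each member's CPM over its mean in sham kidneys, one column per kidney and one row per member, with lines between gene classes. *Gclc* is darkest red in replicates 6 and 7 of the 5d post-MI group, *Nqo1* ranges from red to blue among the sham kidneys themselves, and most peroxiredoxin, dismutase and thioredoxin rows are nearly white.

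The regulators themselves did not pass the test. *Nfe2l2* transcripts ranged from 48.8 to 69.8 CPM in sham kidneys (median 55.9), from 48.1 to 66.7 CPM at 5d (median 56.6) and from 47.3 to 61.4 CPM at 28d post-MI (median 52.0). The 3 ranges overlapped almost wholly, and the log2 fold change was −0.0044 at 5d, with a 95% interval from −0.16 to 0.15, and −0.083 at 28d, with an interval from −0.25 to 0.08. *Keap1* was even tighter in sham kidneys, between 36.0 and 40.8 CPM (median 37.4). It spread from 31.3 to 42.9 CPM at 5d and from 32.2 to 41.5 CPM at 28d, with log2 fold changes of −0.03 ± 0.08 and −0.0029 ± 0.082 (SE). NRF2 is regulated mainly by protein stability, which a transcript level does not show.

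*Nqo1*, a quinone reductase and one of the best known NRF2 targets, varied more among sham kidneys than between groups. Its level was 97.5, 78.5, 101 and 83.3 CPM in sham replicates 1 to 4, but 44.0, 36.0, 50.2 and 48.5 CPM in sham replicates 5 to 8. Replicates 1, 2 and 3 of the 5d post-MI group held 74.0, 83.5 and 71.5 CPM, and the other 5 lay between 42.3 and 53.8 CPM. All 6 kidneys at 28d lay between 48.0 and 58.4 CPM, within the gap of the sham kidneys or close to its lower edge. The coefficient of variation was 38.0% in sham kidneys, where counting alone gives 6.92%, and 7.48% at 28d. The log2 fold change was −0.19 ± 0.20 at 5d (unadjusted p 0.374) and −0.33 ± 0.23 at 28d (unadjusted p 0.159).

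Sham replicates 1 to 4 were also the 4 sham kidneys with the most *Gsta2*, *Gsta3*, *Gstp1*, *Gstp2*, *Gpx4*, *Cat* and *Keap1*. For *Keap1* the step between these kidneys and the others was small, from 37.2 to 37.6 CPM. This order was noticed in the values themselves, so that no test was made of it, and the labels give no batch or date for these kidneys. How many of all tested genes show the same order was not counted, so that it cannot be called particular to these members.

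**Figure D3:**
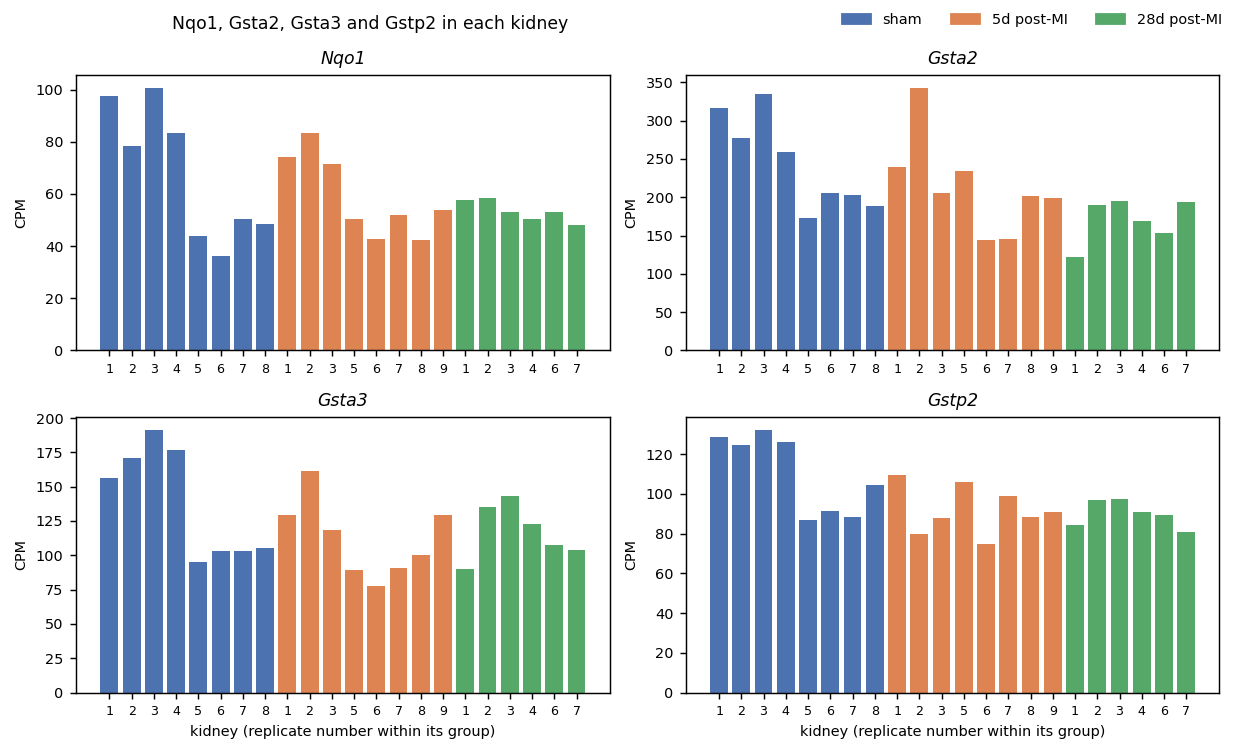
CPM of *Nqo1*, *Gsta2*, *Gsta3* and *Gstp2* as 1 bar per kidney, coloured by group. Sham replicates 1 to 4 stand above sham replicates 5 to 8 for all 4 genes, and for *Nqo1* the 28d post-MI bars all lie between 48.0 and 58.4 CPM.

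Glutathione is made in a pair of steps, the first by glutamate-cysteine ligase with its catalytic (*Gclc*) and modifier (*Gclm*) subunits and the second by glutathione synthetase (*Gss*), and *Gsr* recycles its oxidised form. *Gclc* had the largest positive log2 fold change of all members at 5d post-MI. It ranged from 119 to 204 CPM in sham kidneys (median 152), from 139.6 to 349 CPM at 5d (median 199.9) and from 137 to 218 CPM at 28d (median 182). Replicates 5, 6, 7 and 8 of the 5d group, at 246, 306, 349 and 210.3 CPM, were above every sham kidney, while replicates 1 and 2, at 139.6 and 139.9 CPM, lay in the lower part of the sham range. The log2 fold change at 5d was 0.48 ± 0.18 (unadjusted p 0.0128, edgeR adjusted p 0.498) and at 28d 0.15 ± 0.19.

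The other genes of this pathway stayed near sham. *Gclm*, from 248 to 303 CPM in sham kidneys, spanned 224 to 297 CPM at 5d and 244 to 303 CPM at 28d, with a log2 fold change of −0.07 ± 0.05 at 5d. The 95% interval of the *Gclm* change at 5d, −0.18 to 0.04, lies below that of *Gclc*, 0.12 to 0.85, although both subunits form 1 enzyme; the difference between the subunits was not tested. *Gss* was at 348 ± 15.8 CPM in sham kidneys (SD, n = 8), 333 ± 42.2 at 5d (n = 8) and 351 ± 14.8 at 28d (n = 6). *Gsr* was at 128 ± 19.0, 119.8 ± 9.44 and 125 ± 8.02 CPM in the same order.

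Haemoglobin and other red blood cell transcripts were also higher at 5d post-MI: their summed level was 2485 to 4389 CPM in sham kidneys, 5265 to 19521 CPM at 5d and 2065 to 5436 CPM at 28d. At 5d, 8 of the 11 tested markers had an unadjusted p under 0.05 and were higher (72.7%, against 3.92% of all genes). The summed red blood cell level was highest in replicates 6 and 7 of the 5d group, at 19521 and 13566 CPM, which were also the kidneys with the most *Gclc*. Replicates 9 and 2 came next, at 10541 and 10294 CPM, but their *Gclc*, at 187 and 139.9 CPM, lay inside the sham range. Replicates 5 and 8, at 7907 and 7440 CPM, held 246 and 210.3 CPM of *Gclc*, above every sham kidney. Replicates 3 and 1, at 6965 and 5265 CPM, held 189.5 and 139.6 CPM of *Gclc*. With the mean log2 level of this list as a covariate, 3 members (*Gpx3*, *Gstt2* and *Gstt3*) had an unadjusted p under 0.05 at 5d in place of 6, and 4.91% of all genes in place of 7.90%. In this fit the log2 fold change of *Gclc* at 5d was 0.03 (unadjusted p 0.916), in place of 0.48, and at 28d it was 0.28 in place of 0.15. *Alas2* of the same list, the first enzyme of haem synthesis in red cell precursors, stayed at 3 counts or fewer in every kidney. The summed levels of the sham and 5d kidneys did not overlap, so that this fit can hardly tell the score apart from the group. The part of these markers in the member levels was not tested.

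The alpha class glutathione S-transferases, cytosolic enzymes abundant in liver and proximal tubule that also reduce lipid peroxides, had 4 members, all tested. *Gsta2* was the one with the most counts. The last 200 bases of its transcript are 97.5% identical to those of *Gm10639* (1756 counts over all kidneys), so that reads of either may be counted for the other. *Gsta2* ranged from 173 to 335 CPM in sham kidneys (median 232), from 144 to 343 CPM at 5d (median 204) and from 122 to 196 CPM at 28d (median 179). Every kidney at 28d lay below the median of the sham kidneys, and replicates 1, 4 and 6, at 122, 169 and 154 CPM, lay below all of them. That median falls between sham replicates 1 to 4, at 259 to 335 CPM, and sham replicates 5 to 8, at 173 to 205 CPM. Replicates 2, 3 and 7 at 28d, at 190, 196 and 194 CPM, lay among sham replicates 5 to 8. The log2 fold change at 28d was −0.52 ± 0.19 (unadjusted p 0.0156, edgeR adjusted p 0.448) and at 5d −0.19 ± 0.18.

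*Gsta3* ranged from 95.2 to 191 CPM in sham kidneys (median 131), 77.5 to 162 CPM at 5d (median 109) and 89.7 to 143 CPM at 28d (median 115), with log2 fold changes of −0.29 ± 0.18 and −0.23 ± 0.19. *Gsta1* had 305 counts over all kidneys, and its spread among sham kidneys, a coefficient of variation of 30.5%, was close to the 24.5% that counting alone gives. Its log2 fold change was −0.23 ± 0.23 at 5d and −0.42 ± 0.27 at 28d. Its transcript end is 99.5% identical to that of *Gm3776*, which had 287 counts. All 4 alpha class members had a log2 fold change below 0 at 28d, between −0.52 and −0.16.

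The mu class, detoxifying enzymes encoded side by side on chromosome 3, had 5 of 7 members tested. *Gstm1* ranged from 392 to 719 CPM in sham kidneys (median 532), from 386 to 583 CPM at 5d (median 547) and from 399 to 472 CPM at 28d (median 424). The 6 kidneys at 28d thus sat close together in the lower part of the sham range, none of them below it, since sham replicate 7 held 392 CPM. Their log2 fold change against sham was −0.36 ± 0.12 (unadjusted p 0.00783, edgeR adjusted p 0.377), and against 5d −0.26 ± 0.12 (unadjusted p 0.0405).

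*Gstm5*, a mu class enzyme known best from brain and testis, went the other way at 5d. It ranged from 92.5 to 115 CPM in sham kidneys, from 100.2 to 138 CPM at 5d and from 97.2 to 113 CPM at 28d. Replicates 1, 2, 3 and 6 of the 5d group, at 117, 138, 134 and 133 CPM, exceeded every sham kidney, and the log2 fold change was 0.19 ± 0.07 (unadjusted p 0.00657, edgeR adjusted p 0.437). *Gstm7*, with 363 counts over all kidneys, ranged from 3.86 to 9.14 CPM in sham, from 4.21 to 8.53 CPM at 5d and from 1.61 to 5.61 CPM at 28d. Replicates 1, 3 and 6 at 28d lay below every sham kidney, and the log2 fold change of −0.61 ± 0.23 (unadjusted p 0.0115, edgeR adjusted p 0.408) was the most negative of all members at 28d. *Gstm2* and *Gstm4* had log2 fold changes between −0.21 and −0.01 against sham at either time.

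**Figure D4:**
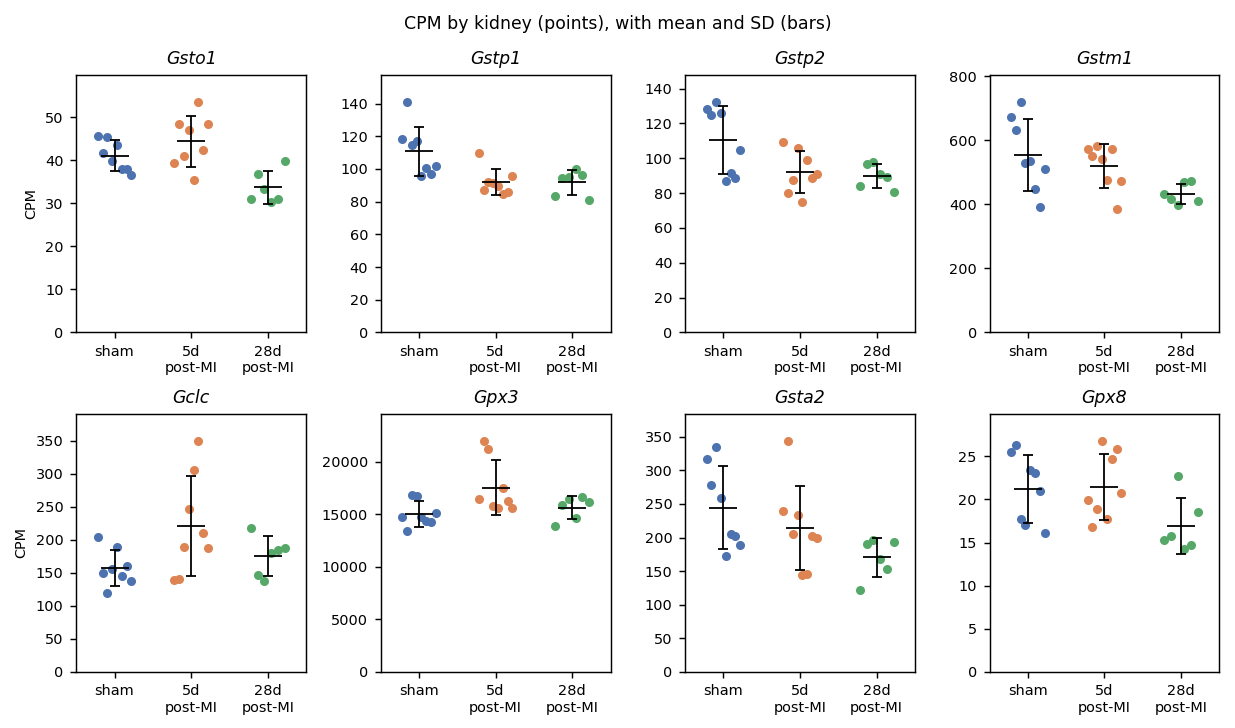
CPM in each kidney (points) with the group mean and SD (bars) for 8 members with an unadjusted p under 0.05 in at least 1 comparison. *Gsto1* points at 28d lie mostly below both other groups, 7 of 8 *Gstp1* points at 5d lie below all sham points, and *Gclc* and *Gpx3* spread upwards at 5d.

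The pi class holds *Gstp1* and *Gstp2*, neighbouring genes on chromosome 19 (GRCm38, GENCODE M21: chr19:4035407-4037985 and chr19:4040285-4046023, both on the minus strand), whose enzymes conjugate electrophiles and whose transcription NRF2 is known to raise. The last 369 bases of their longest coding transcripts were identical, and MACE reads this end, so that the reads of both genes cannot be told apart by sequence. *Gstp1* took between 46.2% and 54.5% of the pair's counts in each kidney. The values of the pair are therefore given once more as a sum.

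*Gstp1* ranged from 95.8 to 141 CPM in sham kidneys (median 108), from 84.9 to 109.9 CPM at 5d (median 90.7) and from 81.2 to 100.2 CPM at 28d (median 94.8). At 5d, 7 of 8 kidneys lay below every sham kidney, with replicate 1 as the exception, and at 28d 4 of 6 did. The log2 fold change was −0.26 ± 0.07 at 5d (unadjusted p 0.000468, edgeR adjusted p 0.146) and −0.27 ± 0.08 at 28d (unadjusted p 0.00101, edgeR adjusted p 0.231), the lowest p of all members at both times. When each kidney was left out in turn, the edgeR adjusted p of *Gstp1* at 5d ranged from 0.0364 to 0.419. It passed the threshold in 1 of 22 fits, the one without replicate 1 of the 5d group. A sum of *Gstp1* and *Gstp2* was not refitted in this way.

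*Gstp2* had a log2 fold change of −0.26 ± 0.09 at 5d and −0.30 ± 0.10 at 28d, and 2 kidneys of each post-MI group lay below every sham kidney. With the red blood cell score as a covariate, the change at 5d was −0.11 for *Gstp2* (unadjusted p 0.462) and −0.20 for *Gstp1* (unadjusted p 0.0799). At 5d that fit can hardly tell the score apart from the group. The summed pair was at 221 ± 32.8 CPM in sham kidneys (SD, n = 8), 184 ± 17.8 at 5d (n = 8) and 182 ± 13.5 at 28d (n = 6). As a sum, 4 of 8 kidneys at 5d and 2 of 6 at 28d lay below every sham kidney. Sham replicates 1 to 4, between 243 and 266 CPM, were above every post-MI kidney, and sham replicates 5 to 8, between 183 and 206 CPM, lay among them. With no filter on low counts, *Gstp1* (edgeR adjusted p 0.0304 at 5d and 0.0393 at 28d) and *Gstp2* (0.0402 and 0.0146) each passed the adjusted threshold against sham at nearly the same fold changes. As 1 gene in a fit of the whole table with the filter on, the pair had a log2 fold change of −0.26 ± 0.07 at 5d (edgeR adjusted p 0.278) and −0.28 ± 0.08 at 28d (edgeR adjusted p 0.263). The sum was not fitted without the filter.

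The 250 bases before the RefSeq start of both genes are shown because both hold a match to the NF-E2 type of the Maf recognition element, the kind of site that NRF2 binds with small MAF proteins. The letters searched were TGANTCAGC on either strand, from 250 bases before to 50 bases after each start in RefSeq promoters of GRCm38.p6, which held 61 promoters of 47 members. The motif was found in 4 of 61 member promoters (6.56%), those of *Gstp1*, *Gstp2*, *Prdx1* and *Srxn1*, and in 390 of all 32851 promoters (1.19%). Capitals mark the match, on the strand of the gene, 74 to 66 bases before the start of *Gstp1* (chr19:4037913-4038162, minus strand) and 89 to 81 bases before that of *Gstp2* (chr19:4042222-4042471, minus strand). The RefSeq start of *Gstp2* lies 42 bases inside its main coding transcript in GENCODE, but 3802 bases inside the gene as GENCODE bounds it, since other transcripts begin further upstream; for *Gstp1* both distances are 73 bases.
Gstp1: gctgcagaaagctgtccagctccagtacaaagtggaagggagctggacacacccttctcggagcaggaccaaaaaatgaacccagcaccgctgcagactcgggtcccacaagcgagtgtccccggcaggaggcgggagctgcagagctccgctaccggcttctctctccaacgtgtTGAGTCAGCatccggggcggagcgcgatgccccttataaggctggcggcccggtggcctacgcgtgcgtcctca
Gstp2: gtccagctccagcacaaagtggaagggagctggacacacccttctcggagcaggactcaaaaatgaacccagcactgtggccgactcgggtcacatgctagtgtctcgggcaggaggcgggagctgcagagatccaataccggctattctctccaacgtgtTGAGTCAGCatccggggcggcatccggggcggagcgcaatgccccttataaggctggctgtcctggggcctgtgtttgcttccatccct

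The looser core of the antioxidant response element, TGACNNNGC on either strand, was found in 9 of the 61 member promoters (14.8%), close to the 12.4% of all promoters, and a match is a description of letters and not of binding. The motifs overlap where the open letter of the first is C, as in *Prdx1*, where the same letters match both, and neither *Gstp1* nor *Gstp2* matched the looser core in this window. Windows of 59 bases are shown for 6 of these 9 genes, since they span the classes described here; capitals mark the match. *Gsta3* (chr1:21240439-21240497) and *Gstm5* (chr3:107895787-107895845) hold it on the strand of the gene, and *Txnrd1* (chr10:82859089-82859147), *Gclm* (chr3:122245398-122245456), *Prdx1* (chr4:116685441-116685499) and *Sod1* (chr16:90220681-90220739) on the opposite strand. All 6 genes lie on the plus strand. No promoter was found in the RefSeq table for 8 members, among them *Gclc*, *Gsr* and *Gstt2*.
Gsta3: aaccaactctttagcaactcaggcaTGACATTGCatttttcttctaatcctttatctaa
Gstm5: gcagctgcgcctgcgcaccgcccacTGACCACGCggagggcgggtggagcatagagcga
Txnrd1: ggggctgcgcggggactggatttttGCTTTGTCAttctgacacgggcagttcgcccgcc
Gclm: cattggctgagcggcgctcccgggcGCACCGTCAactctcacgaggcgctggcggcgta
Prdx1: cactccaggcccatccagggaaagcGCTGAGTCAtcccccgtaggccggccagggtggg
Sod1: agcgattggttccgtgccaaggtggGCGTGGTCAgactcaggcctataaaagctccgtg

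Of all 9 members with this core, 1 at 5d (11.1%, *Gstm5*, higher) and 1 at 28d (11.1%, *Gstm7*, lower) had an unadjusted p under 0.05 against sham, where 7.90% and 8.68% of all tested genes did.

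Theta class transferases, which handle small halogenated compounds, were the 1 transferase class with positive log2 fold changes for all tested members (3 of 4 tested), between 0.05 and 0.15 at 5d and between 0.03 and 0.16 at 28d. *Gstt2* ranged from 204 to 275 CPM in sham kidneys (median 251), from 235 to 315 CPM at 5d (median 269) and from 255 to 294 CPM at 28d (median 276). Replicates 3, 7 and 8 of the 5d group and replicates 3, 6 and 7 of the 28d group exceeded every sham kidney. The log2 fold change was 0.15 ± 0.06 at 5d (unadjusted p 0.0152, edgeR adjusted p 0.507) and 0.16 ± 0.06 at 28d (unadjusted p 0.0159, edgeR adjusted p 0.450).

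*Gsto1* (GRCm38, GENCODE M21: chr19:47854970-47864790, plus strand) encodes an omega class transferase, which works as a thiol transferase and a dehydroascorbate reductase. It ranged from 36.6 to 45.6 CPM in sham kidneys (median 40.8), from 35.5 to 53.6 CPM at 5d (median 44.7) and from 30.3 to 39.8 CPM at 28d (median 32.2). Replicates 1, 3, 4 and 6 at 28d, between 30.3 and 33.3 CPM, lay below every sham kidney and every kidney at 5d, and replicates 2 and 7, at 36.9 and 39.8 CPM, lay inside both ranges. Replicates 2, 5, 7 and 9 of the 5d group, between 47.0 and 53.6 CPM, were above all sham kidneys.

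From 5d to 28d post-MI *Gsto1* fell by 0.40 ± 0.09 on the log2 scale (edgeR adjusted p 0.0249). Against sham its log2 fold change was 0.13 ± 0.08 at 5d (unadjusted p 0.129) and −0.28 ± 0.09 at 28d (unadjusted p 0.00439, edgeR adjusted p 0.335). The call between the times rested on single kidneys: leaving out replicate 2, 5 or 7 at 5d, or replicate 1, 3, 4 or 6 at 28d, gave adjusted p-values between 0.0554 and 0.0909, with log2 fold changes between −0.40 and −0.36. With the red blood cell score as a covariate the log2 fold change stayed at −0.40, with an edgeR unadjusted p of 0.0157 and adjusted p of 0.740. The summed red blood cell level was 5265 to 19521 CPM at 5d and 2065 to 5436 CPM at 28d. That fit can therefore hardly tell the score apart from the time. The zeta and kappa class members *Gstz1* and *Gstk1*, of amino acid breakdown and of mitochondria and peroxisomes, had log2 fold changes between −0.07 and 0.02 against sham.

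Among glutathione peroxidases, which reduce peroxides at the cost of glutathione, 6 of 8 were tested. *Gpx3* ranged from 13380.5 to 16831 CPM in sham kidneys (median 14741), from 15555 to 21925 CPM at 5d (median 16367) and from 13848 to 16638 CPM at 28d (median 16047). Replicates 2, 3 and 7 of the 5d group, at 21925, 21226 and 17487 CPM, exceeded every sham kidney, and the other 5 lay within the sham range. The log2 fold change was 0.22 ± 0.07 at 5d (unadjusted p 0.00687, edgeR adjusted p 0.444) and 0.06 ± 0.08 at 28d. From 5d to 28d it was −0.17 ± 0.08 (unadjusted p 0.0496). Replicate 2 of the 5d group also had the lowest summed level of proximal tubule markers of all 22 kidneys, 46484 CPM.

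*Gpx8*, a peroxidase of the endoplasmic reticulum, ranged from 16.1 to 26.3 CPM in sham kidneys, from 16.8 to 26.7 CPM at 5d and from 14.2 to 22.8 CPM at 28d. Replicates 1, 2, 4 and 6 at 28d lay below all kidneys of both other groups, and the log2 fold change was −0.33 ± 0.14 against sham (unadjusted p 0.0214) and −0.35 ± 0.14 against 5d (unadjusted p 0.0154), with edgeR adjusted p-values of 0.482 and 0.392. *Gpx1*, the cytosolic peroxidase, was at 2736 ± 146 CPM in sham kidneys (SD, n = 8), 2866 ± 251 at 5d (n = 8) and 2845 ± 188 at 28d (n = 6). *Gpx4*, which protects membranes from lipid peroxidation, was at 466 ± 32.1, 447 ± 30.4 and 460.0 ± 20.3 CPM. The last 200 bases of a transcript of *Gpx4-ps2* equal those of *Gpx4*, and the table holds 33039 counts for it beside 29534 for *Gpx4*, so that this level may be that of both.

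Peroxiredoxins use a reactive cysteine to reduce peroxides, and sulfiredoxin (*Srxn1*) restores them after overoxidation. *Prdx4*, the peroxiredoxin of the secretory pathway, was the 1 of 7 tested members of this class with an unadjusted p under 0.05. It ranged from 21.2 to 28.2 CPM in sham kidneys, from 19.1 to 27.3 CPM at 5d and from 18.3 to 22.8 CPM at 28d. Replicates 2, 3 and 6 at 28d lay below every other kidney, and the log2 fold change was −0.26 ± 0.10 against sham (unadjusted p 0.0163) and −0.28 ± 0.10 against 5d (unadjusted p 0.0118), with edgeR adjusted p-values of 0.452 and 0.356.

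*Prdx5*, found in mitochondria, peroxisomes and cytosol, was at 1519 ± 86.3 CPM in sham kidneys (SD, n = 8), 1530 ± 87.2 at 5d (n = 8) and 1567 ± 71.4 at 28d (n = 6). *Srxn1*, a sensitive NRF2 target, was at 48.8 ± 5.88, 44.6 ± 5.83 and 46.4 ± 4.26 CPM in this order, with a log2 fold change of −0.12 ± 0.08 at 5d and a 95% interval from −0.29 to 0.04. The remaining peroxiredoxins had log2 fold changes between −0.07 and 0.02 against sham at either time.

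Superoxide dismutases, catalase and the thioredoxin system held no member with an unadjusted p under 0.05 in any comparison. *Sod1*, the cytosolic dismutase, ranged from 1214 to 1354 CPM in sham kidneys, 1068 to 1388 CPM at 5d and 1225 to 1483 CPM at 28d, and its 95% interval at 28d ran from −0.04 to 0.16. *Cat*, the peroxisomal catalase, was at 723 ± 88.7 CPM in sham kidneys (SD, n = 8), 685 ± 46.4 at 5d (n = 8) and 718 ± 34.6 at 28d (n = 6). *Txn1*, the cytosolic thioredoxin, was at 343 ± 18.7, 338 ± 15.1 and 341 ± 21.7 CPM. Its reductase *Txnrd1*, an NRF2 target, was at 95.5 to 108 CPM in sham kidneys; 6 of 8 kidneys at 5d lay below this range, and replicate 2 lay above it at 115 CPM. Its log2 fold change was −0.09 ± 0.07 at 5d and 0.02 ± 0.07 at 28d.

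Transcripts known from fat tissue had lower levels at 28d as well. Of the tested white adipocyte markers 6 of 11, and of the brown adipocyte markers 8 of 8, had an unadjusted p under 0.05 and were lower at 28d than in sham kidneys, where 4.23% of all genes did, and 0 of them passed the adjusted threshold. The summed white adipocyte level was 1594 to 3760 CPM in sham kidneys and 1733 to 2704 CPM at 28d, and the brown one 101 to 551 and 107 to 191 CPM. With the mean log2 levels of both lists as covariates, 1 member (*Gstm7*) had an unadjusted p under 0.05 at 28d against sham in place of 9. In this fit 4.91% of all genes did, in place of 8.68%.

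Members differed in how far their log2 fold change moved in that fit. It went from −0.33 to −0.07 for *Gpx8*, from −0.30 to −0.10 for *Gstp2* and from −0.27 to −0.13 for *Gstp1*. It went from −0.26 to −0.24 for *Prdx4* and from −0.36 to −0.27 for *Gstm1*, and stayed at −0.61 for *Gstm7* and near 0.16 for *Gstt2*. The fall of *Gsto1* between the times was −0.39 with these covariates (edgeR adjusted p 0.0298). Whether these transcripts came from fat cells was not tested.

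The proximal tubule, plasma cell and immediate early lists differed between the groups too. The summed proximal tubule level was 62020 to 75197 CPM in sham kidneys and 77129 to 86643 CPM at 28d, without overlap. At an unadjusted p under 0.05, 4 of 15 tested markers were higher at 28d (26.7%, against 4.45% of all genes) and 1 lower (6.67%, against 4.23%). With the proximal tubule score as a covariate, 6 members (*Gpx6*, *Gpx8*, *Gstm1*, *Gsto1*, *Gstp1* and *Gstp2*) had an unadjusted p under 0.05 at 28d against sham in place of 9, and 7.02% of all genes did. Since the summed levels of the sham and 28d kidneys did not overlap, this fit can hardly tell the score apart from the group.

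The summed plasma cell level was 49.0 to 133 CPM in sham kidneys, 39.1 to 178 CPM at 5d and 201 to 305 CPM at 28d, also without overlap at 28d. Immediate early genes, which respond within minutes to many stimuli, summed to 699 to 1685 CPM in sham kidneys, 179 to 803 CPM at 5d and 1131 to 2725 CPM at 28d. All 9 of them had an unadjusted p under 0.05 and were lower at 5d than in sham kidneys, where 3.97% of all genes were. From 5d to 28d, 8 passed the adjusted threshold as higher, where 0.415% of all genes passed it in either direction. The part of both lists in the member changes was not tested.

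**Figure D5:**
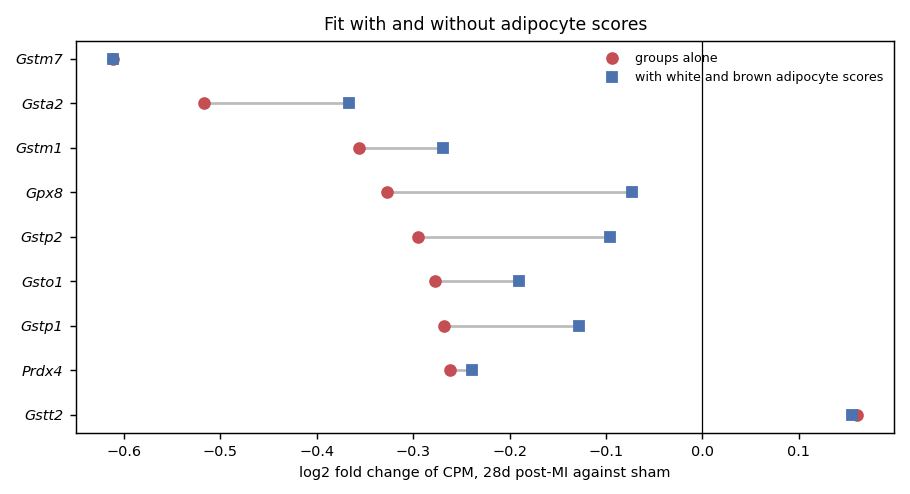
Log2 fold change at 28d post-MI against sham for the 9 members with an unadjusted p under 0.05, fitted with the groups alone (circles) and with the white and brown adipocyte scores added (squares). *Gpx8*, *Gstp2* and *Gstp1* move furthest towards 0 in proportion, while *Gstm7*, *Prdx4* and *Gstt2* hardly move.

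Among 30 tested genes of a list of other NRF2 targets, 0 had an unadjusted p under 0.05 and were higher at 5d (against 3.92% of all tested genes) and 6 were lower (against 3.97%). At 28d 3 were higher (against 4.45%) and 6 lower (against 4.23%), and from 5d to 28d 6 were higher (against 5.03%) and 3 lower (against 4.01%). *Osgin1*, a stress-induced growth inhibitor, was the 1 gene of this list that passed the adjusted threshold in any comparison. It was at 59.4 ± 19.8 CPM in sham kidneys (SD, n = 8), 57.9 ± 9.16 at 5d (n = 8) and 109 ± 30.4 at 28d (n = 6), and it rose from 5d to 28d by 0.91 ± 0.20 on the log2 scale (edgeR adjusted p 0.0443). Of 10 tested partners and repressors of NRF2, 0 were higher at 5d at this unadjusted threshold (against 3.92%) and 1 was lower (against 3.97%). At 28d 1 was higher (*Syvn1*, against 4.45%) and 1 lower (*Rbx1*, against 4.23%). From 5d to 28d 2 were higher (*Mafg* and *Syvn1*, against 5.03%) and 0 lower (against 4.01%). The lower gene at 5d was *Mafg*, a small MAF protein that pairs with NRF2. Its log2 fold change at 5d was −0.25 ± 0.07 (unadjusted p 0.000834, edgeR adjusted p 0.205).

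At the same unadjusted threshold, 18 tested genes of glutathione turnover and transport held 1 higher gene at 5d (5.56%, against 3.92% of all genes) and 3 at 28d (16.7%, against 4.45%), with *Mat2a*, which makes the methyl donor upstream of cysteine, at a log2 fold change of 0.21 ± 0.06 at 28d (unadjusted p 0.000392, edgeR adjusted p 0.162). The cystine transporter *Slc7a11*, an NRF2 target, stayed at 3 counts or fewer in every kidney. Of 9 other transferases and glyoxalases, 1 was higher (11.1%, against 4.45% of all genes) and 3 were lower (33.3%, against 4.23%) at 28d. The microsomal transferase *Mgst3* had a log2 fold change of −0.25 ± 0.07 from 5d to 28d (unadjusted p 0.00172, edgeR adjusted p 0.164). Of 24 other redoxins and repair enzymes 3 were lower at 28d (12.5%, against 4.23% of all genes), among them *Selenow*, selenoprotein W, at −0.25 ± 0.08 (unadjusted p 0.00273, edgeR adjusted p 0.290).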

How the data were processed

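Per the labels, 24 kidneys were sequenced by MACE with unique molecular identifiers. The authors trimmed reads with Cutadapt, mapped them and counted genes with HTSeq; the study's methods name mm10 and the submitters' processing notes mm39 and Bowtie2, and the strand setting is not given in the sources used here. The authors deposited whole-number counts per gene, without normalization, and values named tpm that are CPM, counts scaled to each kidney's total, within 5e-06. Of 48 columns 44 were used; the other 4, of 2 kidneys, share a name across groups, so that 22 kidneys remained. The replicates carry separate labels, and p-values measure the spread between them.

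Counts were filtered (filterByExpr, minimum 10), scaled by TMM and fitted in 1 robust quasi-likelihood model (edgeR 4.0.16, R 4.3.3), two-sided, with 3 contrasts and Benjamini-Hochberg adjustment over 12780 genes. The SE of a log2 fold change is its size over the root of F. DESeq2 1.42.0, limma 3.58.1, other scaling and filters, the deposited CPM as log2(value + 1), covariates (a list's mean log2 of CPM plus 2), and leaving out kidneys were alternatives. The edgeR code was tested on simulated data. Symbols (51948 of 56941) and 3′ ends (BLAST 2.17.0) came from GENCODE M21, promoters from RefSeq. Named members are those with an unadjusted p under 0.05 in any contrast, the member with the most counts in each class, and a set of textbook NRF2 genes; *Gsta3*, *Gstm2*, *Gstm4*, *Gstk1*, *Gpx1*, *Gpx4* and *Cat* were added after their values were seen. Members and lists were chosen with earlier results of these data known.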

Additional observations from a re-analysis of the deposited data

Results flagged for a closer look

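Among the 25 named members, 75 groups of kidneys were screened for a kidney far from the rest of its group by Dixon's criterion, which chance meets in about 1 in 20 groups, and 3 kidneys met it. *Gstp1* in replicate 1 of the 5d post-MI group was at 109.9 CPM, where the next kidney was at 95.6 CPM. *Keap1* in sham replicate 1 was at 40.8 CPM, where the next was at 38.0 CPM. *Txnrd1* in replicate 2 of the 5d post-MI group was at 115 CPM, where the next was at 97.1 CPM. The change of *Gsto1* from sham differed between the times, by −0.40 on the log2 scale from 5d to 28d post-MI (edgeR adjusted p 0.0249).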

How the results depend on the processing

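Without a filter on low counts, 2 members (*Gstp1* and *Gstp2*) were called at 5d and the same 2 at 28d post-MI against sham, where the main fit called 0. The reads of these 2 genes cannot be told apart, so that their calls are not separate results. A sum of the pair was not called at either time in the filtered fit, and it was not fitted without the filter. The call of *Gsto1* from 5d to 28d was lost (0 members called) in a fit of only those groups (adjusted p 0.0577), with the red blood cell score (0.740), with the proximal tubule score (0.0724), without the 3 kidneys with adrenal transcripts, chosen after seeing the data (0.0746), and with the replicate block (0.0807). With the red blood cell score, which can hardly be told apart from the time, its log2 fold change stayed at −0.40. Same-numbered kidneys did not deviate together (18 correlations, −0.13 to 0.09), so the replicate block pairs kidneys by number alone. Under it 8, 11 and 7 of 46 members had an unadjusted p under 0.05 in the 3 comparisons, beside 7.46%, 9.30% and 10.3% of all genes. With the red blood cell score these counts were 3 at 5d (4.91% of all genes) and 4 between the times (5.98% of all genes). With the proximal tubule score 3 members were counted between the times (7.82% of all genes), and with both adipocyte scores 1 at 28d (4.91% of all genes). Leaving out each kidney in turn gave 0 to 1 called members at 5d (1 without replicate 1 of that group), and 0 to 1 between the times. The count with an unadjusted p under 0.05 was 4 to 9 (9 without replicate 8 at 5d) between the times, and 4 without replicate 3 at 5d or replicate 2 at 28d. The direction of the log2 fold change turned for 14, 4 and 10 of 46 members at 5d, at 28d and between the times with the red blood cell score, for 0, 8 and 5 with the proximal tubule score, and for 4, 12 and 5 with both adipocyte scores; none was called. With the red blood cell score these included *Gsr* (0.11), *Gsta2* (0.15) and *Nqo1* (0.15) at 5d and *Gclc* between the times (0.25). With the proximal tubule score they included *Sod1* (−0.0095) and *Gss* (−0.058) at 28d, where that fit can hardly tell the score apart from the group. The cause was not tested. DESeq2, limma on counts and on the deposited values, and another scaling gave the same numbers of called members, with *Gsto1* as the 1 called between the times.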
